A study of Mus musculus with 4 samples.

Results

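The 41 genes described here are imprinted genes of the mouse, measured among 45706 genes in RNA of basal radial glia from the medial neocortex at E18.5. They were chosen by name, as genes known for expression from a single parental copy in some tissue or stage, and each was found by its Ensembl identifier in the GENCODE M21 annotation of GRCm38. All 41 had a row in the deposited count table. They lie at 19 loci on 10 chromosomes and are described by locus and by the parental copy that the literature gives as expressed. They were classed as paternal for 25 genes, maternal for 15 and tissue-dependent for Grb10. Some classes hold only in part. The paternal class includes Ddc, imprinted in the heart, and Inpp5f, imprinted for a single variant. The maternal class includes Ube3a, imprinted in neurons, and Gnas, expressed from the maternal copy or both.

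All 4 libraries belong to one group, medial basal radial glial cells of C57BL/6JOlaHsd embryos at E18.5 that carried the Tubb-GFP reporter on one allele (Tubb-GFP/+), and their titles name the dye DiI. No group without the reporter or the dye is part of the data, so levels were compared between genes and against a fixed level, not between conditions. How reporter and dye served to isolate the cells, and whether the libraries came from separate animals, is not said in the labels, so p-values reflect how far these samples vary among themselves, and that variation may be technical. In bulk libraries, fewer cells of a type and less RNA per cell cannot be told apart.

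Genomic imprinting is the silencing of one parental copy of a gene by DNA methylation laid down in the egg or the sperm and kept in the embryo. Imprinted genes often lie in clusters under a shared control region, where a long noncoding RNA is read from one parental chromosome and protein-coding neighbours from the other. Many act on growth of the embryo and placenta or on the development and behaviour of the brain, and some are imprinted in the brain alone. Gene counts hold no sequence differences between parents, so nothing here shows from which copy a transcript came.

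Library totals ran from 26540656 to 34837657 counts, and the 41 genes took between 0.372% and 0.402% of them. Levels are given as TPM by exon length, the counts per base of exon scaled to 1000000 in each library, and compare genes per length. The 12 radial glia markers were all above 1 TPM with a median of 59.7 TPM, and the 10 neuron markers with a median of 188 TPM, so the libraries held neuronal RNA beside that of radial glia. Markers of intermediate progenitors (7 of 7 above, median 119 TPM), astrocytes (5 of 5, 59.7 TPM), oligodendrocyte precursors (4 of 4, 10.1 TPM) and interneurons (7 of 8, 4.096 TPM) were present too. Choroid plexus, meninges, endothelium and mural cell markers were mostly low, with medians from 0.326 to 0.60 TPM. Erythroid markers summed to 4203 TPM in replicate 2 and to between 2377 and 2683 TPM in the others. Microglia markers summed to 24.8 TPM in replicate 4 and to between 39.4 and 49.3 TPM in the others. Replicates differed by more than counting error in every pair, most in the pairs with replicate 4 (chi-square per degree of freedom 20.1 to 26.4, against 9.85 to 13.9 in the other pairs).

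The promoter windows of 3 genes are shown for genes on which the results turn. They are Nnat and Nap1l5, 2 paternally expressed genes that lie inside an intron of a larger host gene and varied most between libraries among the abundant members, and Peg3, whose window is shared with a neighbouring gene. They were chosen after levels were seen. Each covers 300 bases around a transcription start in RefSeq (GRCm38.p6), most of them upstream. Capitals mark the only motif searched, TGCCGC on either strand (GCGGCA when read on the other), the core of the methylated sequence that the zinc finger protein ZFP57 binds.
Nnat, chr2:157559828-157560127, + strand: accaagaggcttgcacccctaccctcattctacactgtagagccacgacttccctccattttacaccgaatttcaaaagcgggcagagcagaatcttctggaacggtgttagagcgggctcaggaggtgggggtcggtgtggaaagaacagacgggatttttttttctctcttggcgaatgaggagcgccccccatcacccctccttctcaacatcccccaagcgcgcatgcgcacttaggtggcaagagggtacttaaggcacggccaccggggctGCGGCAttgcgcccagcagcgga
Nap1l5, chr6:58907077-58907376, - strand: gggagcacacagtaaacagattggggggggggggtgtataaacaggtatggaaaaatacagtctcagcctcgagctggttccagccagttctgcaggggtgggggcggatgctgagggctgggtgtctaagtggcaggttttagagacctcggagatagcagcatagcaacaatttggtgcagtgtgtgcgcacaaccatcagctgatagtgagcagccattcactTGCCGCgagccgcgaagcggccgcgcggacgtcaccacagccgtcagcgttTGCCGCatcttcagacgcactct
Peg3, chr7:6730370-6730669, - strand: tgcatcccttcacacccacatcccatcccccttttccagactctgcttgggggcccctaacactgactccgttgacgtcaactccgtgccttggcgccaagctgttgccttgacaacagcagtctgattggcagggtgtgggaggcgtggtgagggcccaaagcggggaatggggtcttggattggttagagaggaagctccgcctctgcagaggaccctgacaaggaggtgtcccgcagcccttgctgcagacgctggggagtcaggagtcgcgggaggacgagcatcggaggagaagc

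The Nnat window held the motif once, on the reverse strand, the Nap1l5 window 2 times and the Peg3 window not at all. The Peg3 window overlapped that of Usp29, read in the opposite direction, by 263 bases. Of 41 members, 34 had an entry, with 55 windows between them. The motif occurred in 13 of these (23.6%), against 3813 of 32851 windows of all genes (11.6%). Member windows held a median of 15 CpG, against 7 in all windows, and the medians were 14.5 for paternally and 20 for maternally expressed members. A match in these letters is a description of the window only, and several members have more than 1 start, with windows that can overlap. The motif itself holds a CpG, and its share was not adjusted for the CpG content of the windows.

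Most imprinted genes were above 1 TPM, in a share close to that of all genes. By edgeR's quasi-likelihood test with Benjamini-Hochberg adjustment over all genes, 28 of the 41 lay above 1 TPM, 8 lay below it and 5 were not called. DESeq2, in the form first planned, called 26 above and 0 below among 35 members with an adjusted p (0 below also at an unadjusted p under 0.05), and 28 and 7 with its factors centred on 1. DESeq2 expects factors centred on 1, and the planned form used expected counts as they were. Adjusted p-values of the planned form are therefore of limited use as a check. Among all 20991 genes tested, 65.9% lay above 1 TPM and 12.1% below it (77.9% on either side), so the share of members above (68.3%) was near the background. The 34 protein-coding members stood at 67.65% above and 20.6% below, against 75.7% and 11.5% of 15401 protein-coding genes. The median level was 5.37 TPM (log2(TPM + 1) of 2.67 ± 0.149, SD, n = 4) over the 41 members, against 4.77 TPM (2.53 ± 0.0529) over all genes tested and 8.93 TPM over protein-coding genes.

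Levels within the set spanned more than 4 orders of magnitude on the TPM scale. Means were at least 100 TPM for 6 members, between 10 and 100 TPM for 11, between 1 and 10 TPM for 12 and under 1 TPM for 12. Of the 25 paternally expressed members 18 lay above 1 TPM (72%) and 4 below (16%), with a median of 7.69 TPM. Of the 15 maternally expressed members 9 lay above (60%) and 4 below (26.7%), with a median of 2.95 TPM. Among all genes tested 65.9% lay above and 12.1% below, and among protein-coding genes 75.7% and 11.5%. The maternal class includes the noncoding H19, Meg3, Rian and Mirg, and the paternal class Peg13, Kcnq1ot1 and Airn. These 7 noncoding members had a median of 2.57 TPM, against 8.22 TPM for the 34 protein-coding members. The difference between the parental classes was not tested, and the classes include genes imprinted only in part, such as Inpp5f. Summed over all members the level was 3202, 3124, 2700 and 2539 TPM in replicates 1 to 4, with Nnat the largest contributor in each library.

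**Figure D1:**
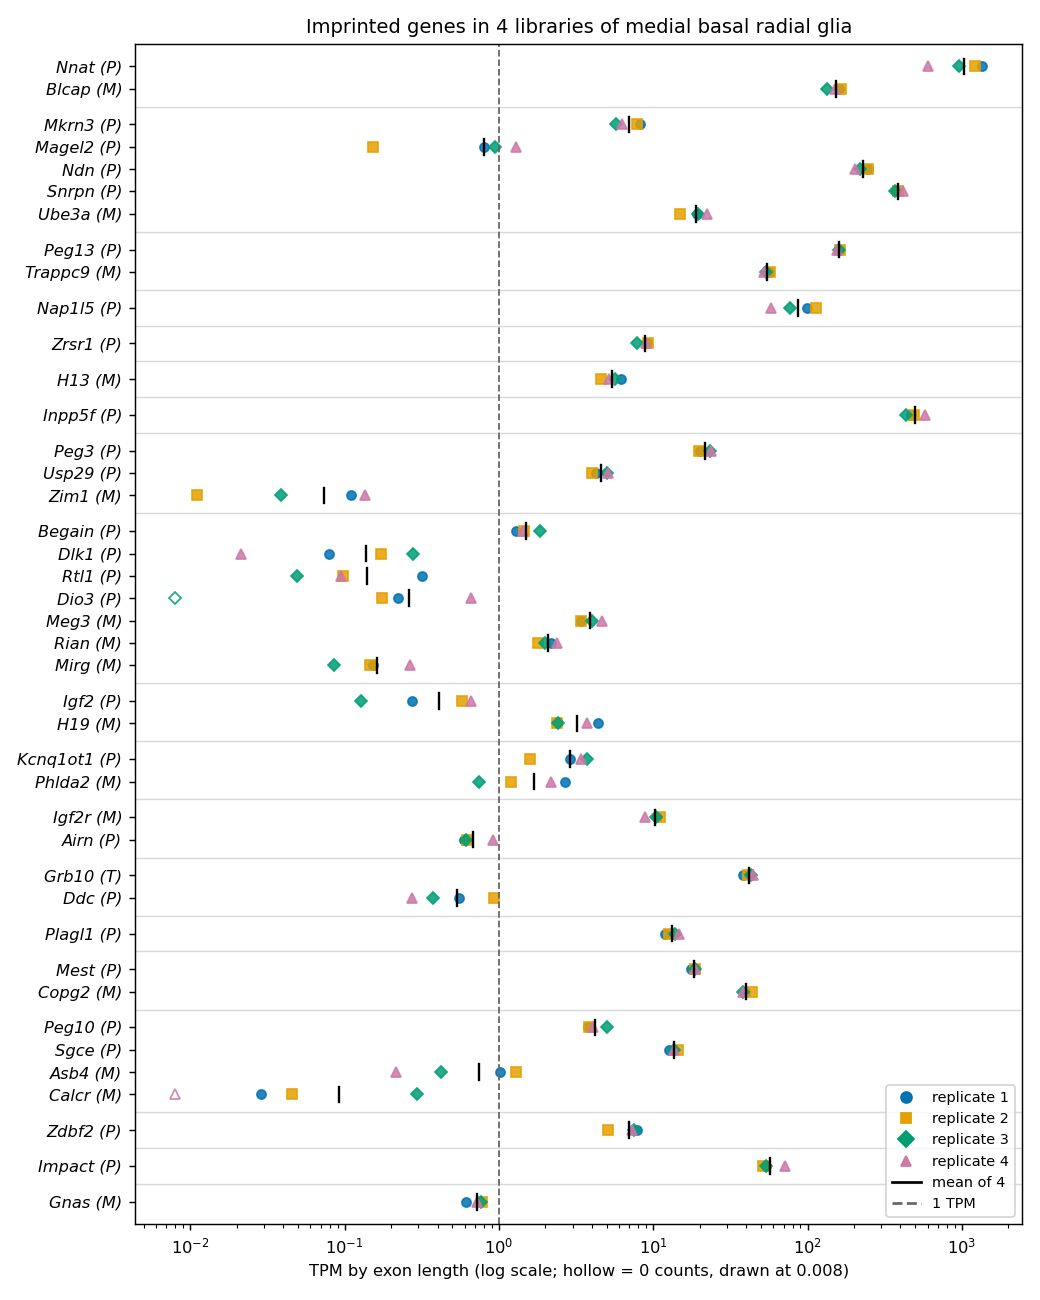
TPM by exon length (log scale) of the 41 imprinted genes in each of 4 libraries, grouped by locus, with the mean as a black bar and the parental copy known as expressed in brackets (P paternal, M maternal, T tissue-dependent). The 6 highest genes average 100 TPM or more, led by Nnat at 1035 TPM, while 12 average under 1 TPM; hollow symbols stand for 0 counts and the dashed line for 1 TPM.

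Nnat encodes neuronatin, a small proteolipid of the endoplasmic reticulum found in developing brain, and lies on chromosome 2 within an intron of Blcap. It was the most abundant member, at 1353, 1220, 963 and 606 TPM in replicates 1 to 4. Replicate 4 held the lowest value and replicate 1 the highest, which were 2.23-fold apart. Blcap, a gene first named for bladder cancer and reported as maternally expressed in brain, had 160, 165, 134 and 150 TPM. Nnat stood above its host in 4 of 4 libraries, by 2.70 ± 0.47 on the log2((TPM + 1)/(TPM + 1)) scale on which all differences between genes are given (SD, n = 4). With 4 libraries the exact two-sided sign-flip permutation test cannot go below p = 0.13, which is its value for each of the 23 pairs compared, before and after adjustment.

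Other genes nested in a host on the reference chromosomes followed the same order except for Zrsr1. Nap1l5, a nucleosome assembly protein family member inside Herc3 on chromosome 6, had 99.9, 114, 76.5 and 58.4 TPM, against 11.4, 9.71, 11.6 and 12.65 TPM for Herc3, a ubiquitin ligase gene. Nap1l5 was highest in replicate 2 and lowest in replicate 4, Herc3 the other way round, and the ranges did not overlap (difference 2.80 ± 0.56). Peg13, a noncoding RNA inside Trappc9 on chromosome 15, had 159, 162, 161 and 156 TPM, among the most even values of all members. Trappc9, which encodes a subunit of a vesicle transport complex and is known for its role in intellectual disability in humans, had 56.25, 57.3, 53.8 and 52.45 TPM. Peg13 was higher in every library by 1.52 ± 0.043. The retrogene Mcts2, which is not a member of the set, had 130, 111, 128 and 131 TPM inside H13, a signal peptide peptidase gene with 6.14, 4.62, 5.67 and 5.165 TPM (difference 4.30 ± 0.093). Zrsr1, a splicing factor retrogene inside Commd1 on chromosome 11, had 9.155, 9.255, 7.855 and 8.94 TPM. Commd1, a copper transport and NF-kappaB regulator, had 16.2, 15.2, 15.6 and 13.7 TPM and Zrsr2, the X-linked relative of Zrsr1, had 24.2, 20.9, 22.2 and 22.5 TPM. Zrsr1 was lower than both in 4 of 4 libraries (differences -0.72 ± 0.145 and -1.26 ± 0.13), and its exons share 9.17% of their bases with other genes.

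**Figure D2:**
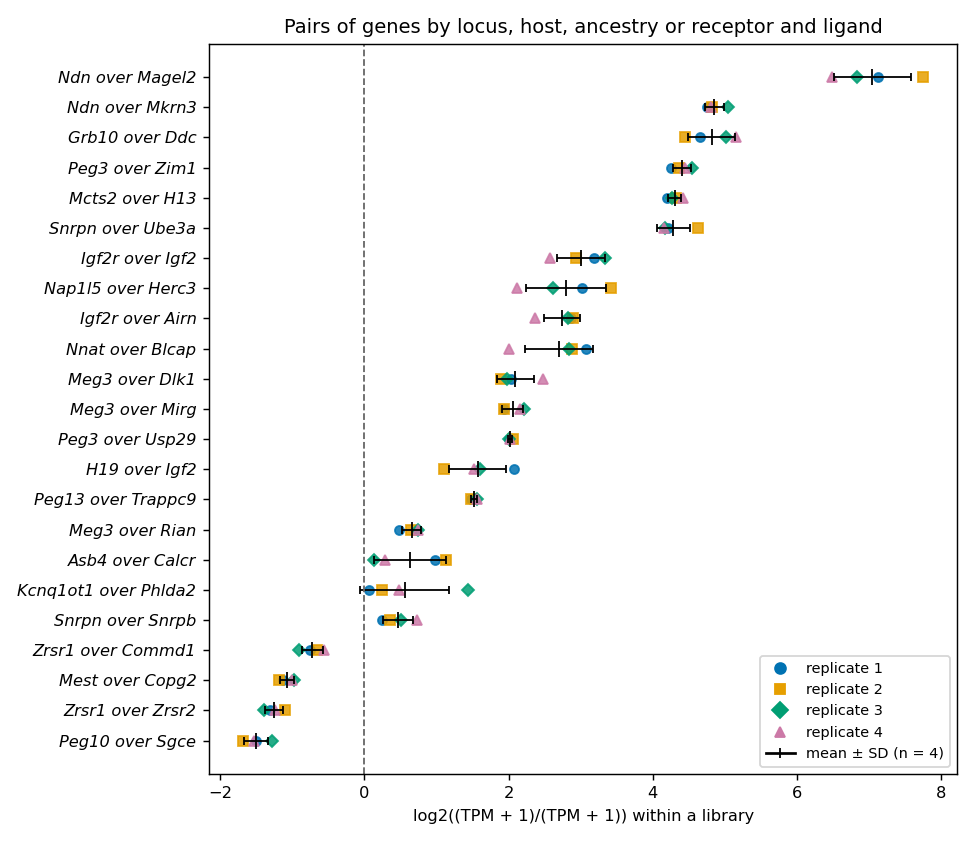
Difference in log2((TPM + 1)/(TPM + 1)) between genes of 23 pairs that share a locus, a host gene or an ancestry or are receptor and ligand (Igf2r and Igf2), for each library (symbols) with mean and SD (black, n = 4). The gene named first was higher in all 4 libraries in 19 pairs and lower in all 4 in the other 4 pairs, those of Zrsr1 with Commd1 and Zrsr2, Mest with Copg2 and Peg10 with Sgce.

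The Snrpn to Ndn domain on chromosome 7, whose paternal genes are lost in Prader-Willi syndrome in humans and whose maternal Ube3a is lost in Angelman syndrome, held both abundant and scarce transcripts. Snrpn, which encodes the neural spliceosome protein SmN, had 374.5, 388, 367 and 417 TPM in replicates 1 to 4. Ndn, encoding the MAGE family protein necdin of postmitotic neurons, had 248, 248, 220 and 203 TPM. Both exceeded 200 TPM in every library, and their means came next after those of Nnat and Inpp5f among the members. The other paternally expressed genes of the domain were far lower. Mkrn3, a makorin RING finger gene that restrains the onset of puberty, had 8.25, 7.81, 5.72 and 6.29 TPM. Magel2, another MAGE family gene and a neighbour of Ndn, had 0.796, 0.1535, 0.944 and 1.28 TPM and was not called against 1 TPM (adjusted p = 0.45, edgeR). Ndn exceeded Mkrn3 by 4.85 ± 0.127 and Magel2 by 7.04 ± 0.54 in 4 of 4 libraries.

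Ube3a encodes the ubiquitin ligase E6AP and is known to be silenced on the paternal chromosome in neurons by the antisense end of Snhg14. It had 19.35, 14.8, 19.5 and 22.45 TPM, lowest in replicate 2 and highest in replicate 4. Snhg14 itself had 1.60, 1.09, 1.40 and 1.88 TPM and was also lowest in replicate 2 and highest in replicate 4. The exons of Ube3a share 8.74% of their bases with other genes, chiefly Snhg14 on the opposite strand. Unstranded reads from the shared bases cannot be told apart, and whether they were counted is not known. Snrpn exceeded Ube3a by 4.29 ± 0.22. Snrpb, the ubiquitous relative of Snrpn, had 315, 302, 257 and 251 TPM, so Snrpn was the more abundant of this related pair in each library, by 0.46 ± 0.21. The exons of Snrpn share 27.3% of their bases with Gm38393 and other genes, and the paralogs may share reads. Snurf, read from the same transcripts as Snrpn and fully covered by other exons, was listed with 0 counts.

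The Peg3 domain on proximal chromosome 7 had an even pair of genes. Peg3, a zinc finger protein known for its part in maternal behaviour and growth, had 20.2, 19.8, 23.2 and 23.7 TPM. Usp29, a ubiquitin protease read away from the same start region, had 4.28, 3.99, 5.04 and 5.06 TPM. Both were lower in replicates 1 and 2 than in replicates 3 and 4. Their difference of 2.02 ± 0.024 had the smallest SD of the 23 pairs on the scale with a pseudocount of 1 TPM. That pseudocount narrows the spread at levels as low as that of Usp29. Their RefSeq start windows are those that overlap by 263 bases, as given beside the Peg3 sequence above. The maternally expressed zinc finger gene Zim1 rested on 8, 1, 3 and 9 counts (0.111, 0.0110, 0.0386 and 0.135 TPM), was the lowest member and lay below 1 TPM (adjusted p = 0.0025, edgeR). Peg3 exceeded it by 4.40 ± 0.12, and by 7.03 ± 0.47 with a pseudocount of 0.1 TPM in place of 1.

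At the Dlk1 to Dio3 domain on chromosome 12, Meg3 and Rian of the maternal chromosome had higher means than the paternal coding genes. Meg3, the first RNA of the maternal transcription unit, had 3.42, 3.38, 4.02 and 4.67 TPM and Rian, a host of small nucleolar RNAs, 2.18, 1.78, 2.00 and 2.38 TPM. Both lay above 1 TPM, and both were highest in replicate 4 and lowest in replicate 2. Under DESeq2 as first planned Meg3 kept that call (adjusted p = 5.89e-05) and Rian lost it (adjusted p = 0.133). With the DESeq2 factors centred on 1 both kept it. Mirg, the microRNA host at the far end of the unit, had 0.153, 0.146, 0.0857 and 0.266 TPM and lay below 1 TPM. Libraries were primed on poly-A, and microRNAs and small nucleolar RNAs cut from these hosts were not measured.

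The paternal genes of the domain were near the counting floor except for Begain. Dlk1, a membrane protein of the Notch ligand family that holds back differentiation, rested on 4, 11, 15 and 1 counts (0.0790, 0.173, 0.276 and 0.0215 TPM). Rtl1, a gene derived from a retrotransposon and needed in the placenta, rested on 18, 7, 3 and 5 counts (0.316, 0.0978, 0.0491 and 0.0955 TPM). Both lay below 1 TPM (adjusted p = 0.0054 and 0.00341, edgeR), and no library held more than 18 counts of either. Dio3, the deiodinase that inactivates thyroid hormone, had 4, 4, 0 and 11 counts (0.220, 0.175, 0 and 0.658 TPM) and was not called; the 0 counts in replicate 3 allow up to 0.154 TPM (3 counts). Begain, which encodes a synaptic scaffold-associated protein, had 1.29, 1.45, 1.84 and 1.43 TPM. It lay above 1 TPM (adjusted p = 0.0118, edgeR), though not without replicate 3 (adjusted p = 0.071). Under DESeq2 the adjusted p was 0.528 in the form first planned and 0.0145 with factors centred on 1. Meg3 stood above Dlk1 by 2.10 ± 0.26, above Rian by 0.655 ± 0.127 and above Mirg by 2.06 ± 0.146. With the longest transcript as length the difference from Rian was 0.025 ± 0.127 and not of one sign. With a pseudocount of 0.1 TPM those from Dlk1 and Mirg were 4.18 ± 0.825 and 3.95 ± 0.35.

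H19, the maternally expressed noncoding RNA beside Igf2, had 4.36, 2.38, 2.41 and 3.75 TPM and lay above 1 TPM. Igf2, the growth factor of embryo and placenta and the classic paternally expressed gene, was scarce. It rested on 14, 37, 7 and 31 counts, or 0.273, 0.574, 0.127 and 0.6575 TPM, and lay below 1 TPM (adjusted p = 0.0212, edgeR, and 0.0709 without replicate 1). H19 exceeded Igf2 by 1.57 ± 0.40 (2.82 ± 0.84 with a pseudocount of 0.1 TPM), and the ranges did not overlap. Meninges, choroid plexus and vessels are known sources of Igf2 in the embryonic brain. In the same libraries 2 of 9 meninges markers were above 1 TPM with sums of 6.74 to 10.8 TPM over the list, and mural cell markers summed to 7.94 to 11.1 TPM with 2 of 6 above. Endothelial markers summed to 56.7 to 72.4 TPM with 3 of 9 above, of which the transporter Slco1c1 had 49.4 to 66.1 TPM, while Cldn5, Cdh5, Flt1, Kdr and Tek averaged under 1 TPM. Of choroid plexus markers 1 of 7 was above, Ttr at 67.8 TPM. The part of such cells in the Igf2 and H19 values was not tested.

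Igf2r, the receptor that takes IGF2 to the lysosome and is best known as maternally expressed, had 10.6, 11.0, 10.4 and 8.89 TPM. Airn, the antisense RNA that silences Igf2r on the paternal chromosome in many tissues, had 0.590, 0.617, 0.608 and 0.911 TPM and was not called. These Airn values rest on 3597 exonic bases of a gene that spans 118826. With the longest transcript as length the log2 level of Airn moved from -0.56 to 0.43 and was again not called (adjusted p = 0.171, edgeR). Replicate 4 was the lowest library for Igf2r and the highest for Airn, and Igf2r exceeded Airn by 2.74 ± 0.25 and Igf2 by 3.01 ± 0.33. All 10 genes of a list of IGF receptors, binding proteins, IGF2 mRNA-binding proteins and the ligand Igf1 lay above 1 TPM. The background was 65.9% of all genes and 75.7% of protein-coding genes. The most abundant were Igf2bp1 (33.3 ± 2.80 TPM), Igfbp5 (25.2 ± 3.21 TPM), Igfbp2 (24.2 ± 3.76 TPM) and Igf2bp3 (11.97 ± 1.001 TPM), all above Igf2 itself in every library.

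In the Kcnq1 domain the paternal antisense RNA Kcnq1ot1, which silences its neighbours in cis, had 2.87, 1.59, 3.74 and 3.41 TPM. Phlda2, a maternally expressed gene known for restraining placental growth, had 2.69, 1.19, 0.743 and 2.17 TPM, on 27, 15, 8 and 20 counts, and was not called (adjusted p = 0.0792, edgeR). Their ranges overlapped, and the difference of 0.56 ± 0.61 was within 1 SD of 0, the only pair of the 23 for which that was so. Without replicate 3, where Phlda2 was lowest, Phlda2 passed the test above 1 TPM (adjusted p = 0.0316).

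On proximal chromosome 6, Peg10, a gene derived from a retrotransposon and needed in the placenta, had 3.805, 3.84, 5.03 and 4.06 TPM. Sgce, the sarcoglycan of myoclonus-dystonia in humans, is read away from the same start region and had 12.6, 14.5, 13.7 and 13.65 TPM. Peg10 was the lower of the pair in every library (difference -1.50 ± 0.164). The maternally expressed Asb4, a subunit of a ubiquitin ligase, had 1.02, 1.29, 0.424 and 0.216 TPM and was not called, with replicates 1 and 2 above replicates 3 and 4. Calcr, the calcitonin receptor, rested on 1, 2, 11 and 0 counts and lay below 1 TPM (adjusted p = 0.0138, edgeR). Replicate 3 held 11 of its 14 counts, and the 0 counts in replicate 4 allow up to 0.0931 TPM (3 counts). Asb4 exceeded Calcr by 0.63 ± 0.49 (2.11 ± 1.34 with a pseudocount of 0.1 TPM).

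Farther along the chromosome, Mest, an enzyme of the hydrolase family active in mesoderm and fat, had 17.5, 18.6, 18.8 and 18.52 TPM. Its neighbour Copg2, a coat protein of transport vesicles, had 39.3, 43.5, 38.0 and 38.2 TPM, so that Mest was lower in every library (difference -1.07 ± 0.096). The genes run towards each other and share 912 exonic bases, 23.1% of Mest and 17.8% of Copg2. Unstranded reads from these bases cannot be told apart, and whether they were counted for either gene is not known.

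Grb10, an adaptor that dampens insulin and IGF1 receptor signalling, is maternally expressed in most tissues and paternally in neurons of the mouse. It had 38.1, 41.3, 43.3 and 44.4 TPM. The next gene, Ddc, encodes the decarboxylase that makes dopamine and serotonin and is imprinted in the heart. Its 22, 47, 16 and 10 counts gave 0.551, 0.936, 0.373 and 0.272 TPM. Ddc narrowly passed the test for a level under 1 TPM (adjusted p = 0.049, edgeR), and leaving out replicate 1, 3 or 4 ended that call (adjusted p = 0.107 to 0.136). So did the longest transcript as length (log2 level -0.15, adjusted p = 0.691), TMM scaling (adjusted p = 0.053) and DESeq2 (adjusted p = 0.0501 and 0.555 in the forms run). The difference of 4.82 ± 0.33 between Grb10 and Ddc held in each library.

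The other loci hold a single member each. Inpp5f, a phosphatase acting on inositol lipids, had 467, 491, 436 and 581 TPM, the second highest level of the set. Only a brain variant of Inpp5f that starts inside the gene is known to be imprinted, and gene counts cannot separate it from the other transcripts. Impact, a regulator of translation, had 53.6, 51.8, 53.5 and 71.0 TPM, with replicate 4 apart from the other libraries. Plagl1, a zinc finger regulator of the imprinted gene network in the mouse, had 11.98, 12.6, 13.9 and 14.65 TPM, within a narrow range. Zdbf2, a gene known for its part in feeding of the newborn mouse, had 7.86, 5.06, 7.47 and 7.28 TPM, lowest in replicate 2.

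Gnas, which encodes the alpha subunit of the stimulatory G protein and is used by most cells, was listed at 0.609, 0.778, 0.763 and 0.716 TPM on 61, 98, 82 and 66 counts. That placed it below 1 TPM (adjusted p = 0.0295, edgeR), but the value is uncertain. The gene shares 22.0% of its exonic bases with others, of which 1469 lie under Gm20721 on the opposite strand. Gm20721 had 1, 0, 1 and 2 counts. With only the unshared exon bases as length the call was lost (log2 level -0.16, adjusted p = 0.39). It was also lost without any one of the 4 replicates (adjusted p = 0.0535 to 0.0974) and turned to a level above 1 TPM with the longest transcript as length (log2 level 0.62, adjusted p = 0.00515).

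The members also differed in how evenly the libraries held them. Among 36 members with at least 40 counts the median coefficient of variation was 13.2%, against 14.9% among 16706 genes. By the edgeR test of spread against other genes of like abundance, 0 members and 0 of all genes (0%) passed at an adjusted p under 0.05. At an unadjusted p under 0.05 there were 4 of 36 members, against 791 of all genes (4.73%). These were Nnat, whose dispersion was 34.85 times the trend (adjusted p = 0.233, edgeR), Kcnq1ot1 (19.5 times, adjusted p = 0.549), Nap1l5 (10.4 times, adjusted p = 0.935) and Ube3a (4.385 times, adjusted p = 0.973).

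How far each library stood from the mean of the other 3 was described for the 17 members at 10 TPM or more, a description chosen after the data were seen. In replicate 4 Nnat deviated by -0.95 on the log2(TPM + 1) scale, percentile 0.529 of genes at that level, and Nap1l5 by -0.70, percentile 1.35. In the same library Impact deviated by 0.42 (percentile 96.5), Ube3a by 0.32 (percentile 92.1) and Inpp5f by 0.32 (percentile 92.2). In replicate 2 Nap1l5 stood at 0.57 (percentile 99.3) and Ube3a at -0.435 (percentile 1.98). In replicate 1 Nnat stood at 0.60 (percentile 99.45). Deviations in replicates 2 and 4 moved with transcript length. Over all genes at 10 TPM or more the median deviation of replicate 4 was -0.0859 for transcripts of up to 1000 bases and 0.12 for those over 5000 bases, and in replicate 2 these were 0.042 and -0.10. Nnat and Nap1l5 have longest transcripts of 1448 and 1844 bases, and Ube3a one of 9856 bases. Nnat and Nap1l5 thus belong to neither of the outer length classes, while Ube3a belongs to that over 5000 bases. In the length class that holds Nnat and Nap1l5, the median deviations were 0.0365, 0.0313 and -0.0502 in replicates 1, 2 and 4. The part of length, and of the erythroid and microglial RNA that differed in replicates 2 and 4, was not tested.

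**Figure D3:**
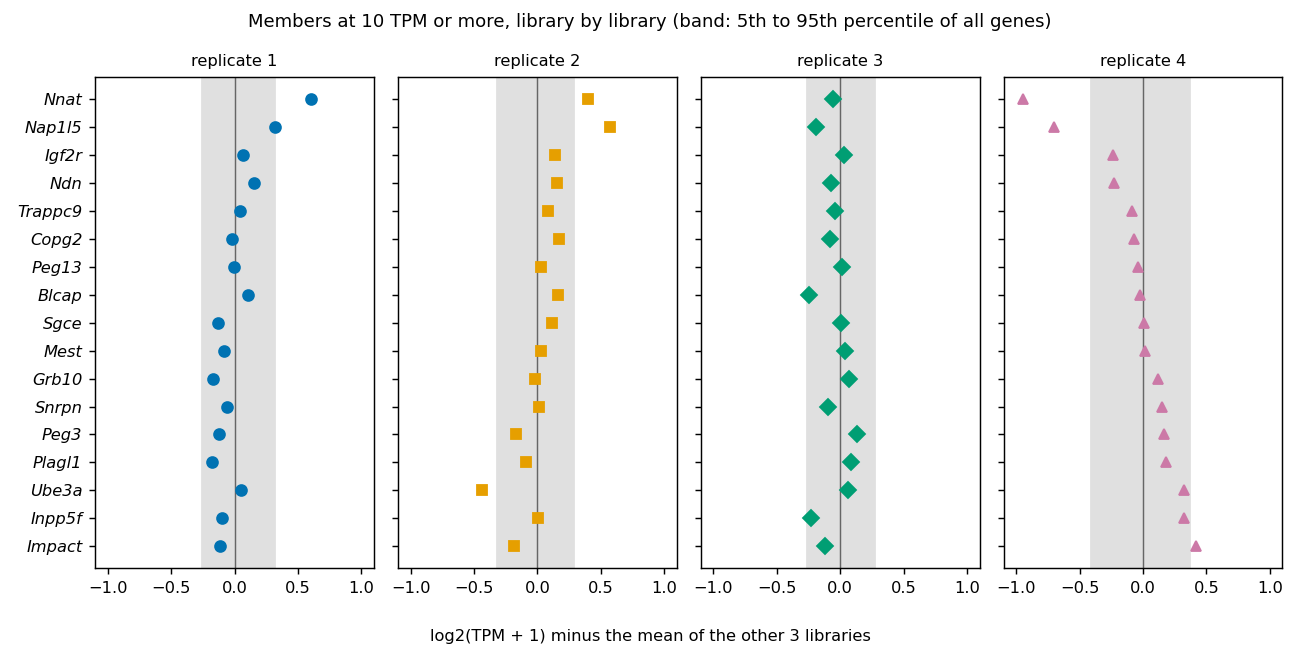
Difference in log2(TPM + 1) between each library and the mean of the other 3 for the 17 members at 10 TPM or more, one panel per library, with the 5th to 95th percentile of all genes at that level in grey. Nnat and Nap1l5 lie left of the band in replicate 4 (-0.95 and -0.70) and right of it or at its edge in replicates 1 and 2, while most other members stay within it.

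The genes that keep imprints through cell division were nearly all present. Of 15 genes in the list of imprint maintenance, 14 lay above 1 TPM, with a list median of 43.1 TPM over all 15. Zfp57, the zinc finger protein that binds the methylated motif marked above, had the highest mean, with 137, 126.5, 128 and 151 TPM. The histone H3.3 gene H3f3a had 132, 138, 134 and 115 TPM, above Zfp57 in replicates 2 and 3, and shares 22.8% of its exonic bases with other genes. The maintenance methyltransferase Dnmt1 averaged 95.3 ± 3.86 TPM and the H3.3 chaperone Daxx 84.7 ± 10.1 TPM. Dppa3, which protects imprints in the zygote, had 0 counts in each library, which allows up to 0.408 TPM in a library (3 counts).

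Of 8 genes for laying down or removing methylation, 7 lay above 1 TPM, with a median of 12.7 TPM over all 8. Kdm1b, a histone demethylase needed for imprints in the egg, had 31.25 ± 3.92 TPM, and the oxidising or repair enzymes Tet3, Tdg and Tet2 had 15.4 ± 1.13, 15.1 ± 0.784 and 14.9 ± 1.89 TPM. Dnmt3l, the germ cell cofactor of the de novo methyltransferases, had 0 counts, which allows up to 0.122 TPM in a library. Both lists stood above the background of 65.9% above 1 TPM in count, and above the 75.7% of protein-coding genes. Neither count was tested.

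**Figure D4:**
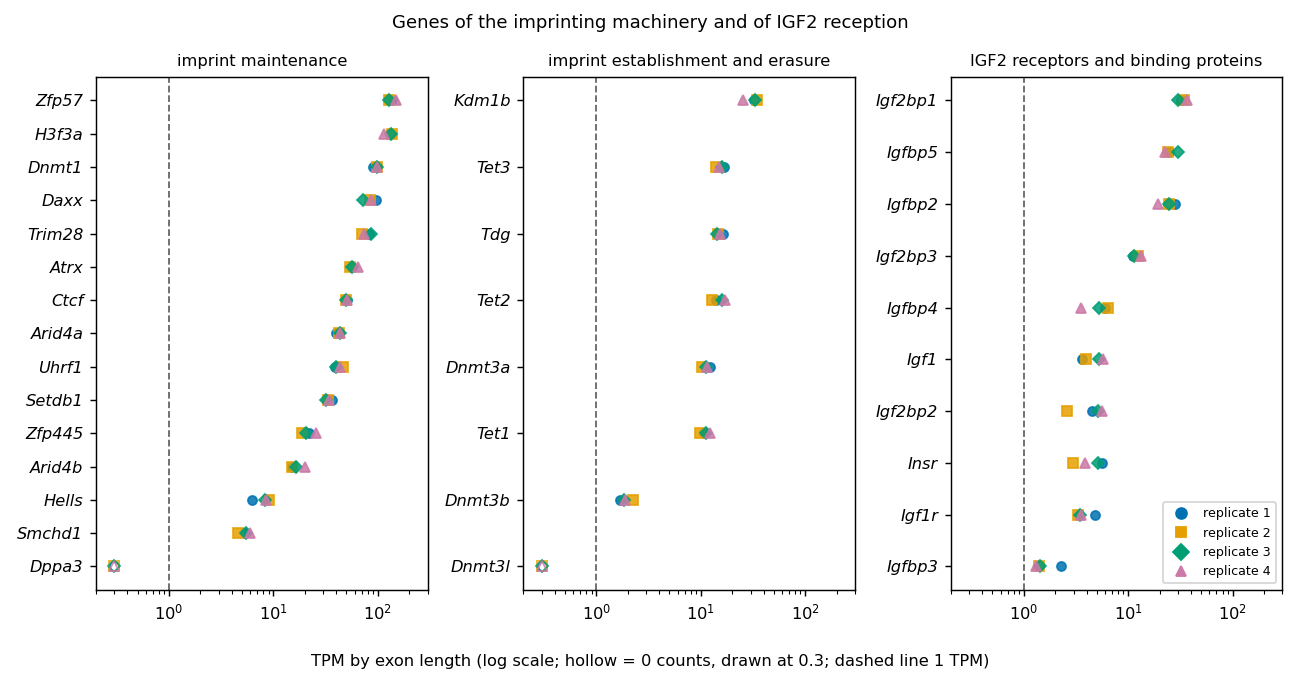
TPM by exon length (log scale) in each library for genes of imprint maintenance, of imprint establishment and erasure, and for IGF receptors and binding proteins, sorted by mean. All are right of 1 TPM (dashed) but Dppa3 and Dnmt3l, which had 0 counts and are drawn as hollow symbols; Zfp57 has the highest mean of the first panel at 135.5 TPM.

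Among 24 other genes that are imprinted or lie in these loci, 21 were tested. Of these, 11 lay above 1 TPM (52.4%) and 3 below (14.3%), against 65.9% and 12.1% of all genes tested. Bcl2l1, an inhibitor of apoptosis, led with 222 ± 6.88 TPM, followed by Mcts2 (125 ± 9.28 TPM), Peg12 (78.9 ± 6.48 TPM), a neighbour of Mkrn3, and Casd1 (28.4 ± 6.49 TPM), a sialic acid acetyltransferase next to Sgce. The 3 below were the organic cation transporter Slc22a3 (0.278 ± 0.114 TPM), the potassium channel Kcnk9 (0.0215 ± 0.0210 TPM) and Tspan32 (0.0675 ± 0.122 TPM), a tetraspanin. Slc22a3 is a neighbour of Igf2r, Tspan32 belongs to the Kcnq1 domain, and Kcnk9 lies beside Peg13 and Trappc9.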

How the data were processed

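RNA of 4 libraries of a single group was measured by sequencing. Total RNA was primed with poly-dT and copied by template switching, and the amplified cDNA was sheared before library making, with no step that marks strand, per the labels' protocols. Per the submitters' processing notes the tools were bcl2fastq 2.19.1 and STAR 2.5.2b with GRCm38. How reads were counted, strand setting included, was not given in the sources used here. Among genes with at least 200 exonic bases, 307 of 332 whose exons were fully shared with other genes had 0 counts (92.5%). Among 30266 genes with unshared exons 37.2% had 0 counts. Whether reads from shared bases were left uncounted was not tested. Counts, as deposited, are whole numbers per Ensembl gene, not normalised. The TPM table deposited by the authors holds 31 of the 41 members; for 9390 of 9848 genes with at least 100 counts (95.35%) its values followed the gene span, introns included, within 0.01 log2, and for 61 (0.619%) merged exons. TPM was therefore recomputed from the deposited counts with merged exon lengths of GENCODE M21 (45143 identifiers matched).

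Genes with at least 10 counts in total were tested against 1 TPM by a quasi-likelihood F test for a single group (edgeR 4.0.16 under R 4.3.3), two-sided, Benjamini-Hochberg over 20991 genes, threshold 0.05. Differences between genes of 23 pairs used log2 with a pseudocount of 1 TPM and an exact sign-flip test. The spread test used genes with at least 40 counts. Scripts were tested on simulated data. Alternatives were DESeq2 1.42.0, TMM scaling, other lengths, levels, pseudocounts and filters, the deposited TPM and each library left out. Counting floors are 3 counts and cover counting error only.

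The members, lists and pairs were chosen with earlier results of these data known. Values of every library are given for the most and least abundant member of each locus, members of at least 10 TPM and both genes of a pair; of the lists of imprinting and IGF genes, up to the 4 highest and any called below 1 TPM. Cell type markers are given by list.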

Additional observations from a re-analysis of the deposited data

Results flagged for a closer look

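In 3 members a single library lay far from the other 3 relative to the whole range of the group. Impact had 71.0 TPM in replicate 4, against 51.8 to 53.6 TPM in the others. Airn had 0.911 TPM in replicate 4, against 0.590 to 0.617 TPM in the others, on 27 counts. Calcr had 0.293 TPM in replicate 3, on 11 counts, against 0 to 0.0454 TPM in the others. Chance flags about 1 in 20 such groups of 4, and 41 members were looked at.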

How the results depend on the processing

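The 28 members above 1 TPM stayed between 26 and 30 under every alternative run, and were 28 without any one replicate. The 8 below numbered 5 to 7 when a replicate was left out, 5 against 0.5 TPM, 12 against 2 TPM and 7 with TMM, longest transcripts or unshared exon bases. Among called members, Gnas changed side with the longest transcript (log2 level 0.62) and against 0.5 TPM (0.52). The log2 level also changed sign for Ddc against 0.5 TPM (0.10) and Begain against 2 TPM (-0.41). Neither was called there (adjusted p = 0.792 and 0.0706, edgeR). A change of the level tested shifts the log2 level of every gene by the same amount. The cause was not tested beyond the length or level itself. The median log2 level was 2.62 to 2.73 with a replicate left out and 2.45 with a pseudocount of 0.1 TPM. All 23 pairs kept one sign in every library with a replicate left out, with a pseudocount of 0.1 or with unshared bases, 22 did in CPM and 21 with longest transcripts (not Meg3 with Rian or Kcnq1ot1 with Phlda2). On the deposited TPM, which follows gene span, 11 of 12 pairs had one sign in every library, but not always that of the main run. The mean difference changed sign for Peg10 minus Sgce (from -1.50 to 0.074), Mest minus Copg2 (-1.07 to 0.95) and Snrpn minus Snrpb (0.46 to -3.64). The spread test called 0 members with at least 10 counts or with TMM scaling. DESeq2 as planned, with the expected counts as factors and its default filtering, called 26 members above and 0 below; with factors centred on 1 and no independent filtering, chosen after that output was seen, it called 28 and 7. The limit of shared bases to genes in the table was also set after a first output was seen. No paired analysis was possible because all libraries belong to one group. Members with few counts, such as Zim1, Calcr, Dlk1, Rtl1 and Dio3, limit what can be said of their spread.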
